A study of Mus musculus with 12 samples.

Results

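The genes described here are the very long protein-coding genes of mouse cells derived from embryonic fibroblasts (MEF). A gene was taken when its span, from the first to the last annotated base, was over 500 kb in GENCODE mouse M21 and its mean level was at least 1 CPM (a count scaled by its library's total) over 12 libraries. This gave 105 of the 37310 rows of the deposited table. Of 221 coding rows over 500 kb, 113 were under 1 CPM, and Magi2, Cadm2 and Lrrc4c were left out by name. The genes were thus chosen by span and by mean CPM over all libraries, so levels are a description. The rule read no difference between groups, except that the 3 genes left out were chosen for theirs.

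Libraries came from 2 lines, 1 labelled as a knockout of HP1γ and 1 as recomplemented for the expression of HP1γ (HPg). HP1γ, encoded by Cbx3, is a chromodomain protein that binds methylated histone H3 and is also found in the bodies of transcribed genes. Each line was grown without PMA or with 100 nM PMA (a phorbol ester, known to switch on protein kinase C) in DMSO for 30 min. This gave 4 groups of 3 libraries, numbered 1 to 3 in each group: HPg, HPg with PMA, knockout and knockout with PMA. All cells grew in serum to near confluence, and which vehicle untreated cells received was not stated. With 1 line per genotype, line and genotype cannot be told apart, and each p-value rests on the spread of libraries from 1 line per genotype. The design asks how RNA levels depend on HP1γ in unstimulated and stimulated cells.

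A very long gene is almost all intron, and RNA polymerase II needs hours to cross it. Total RNA depleted of ribosomal RNA, as sequenced here, holds unspliced transcripts beside mature mRNA. Many such genes encode adhesion, synaptic and scaffold proteins of neurons, and several lie in common fragile sites, regions that break when replication is slowed. Exons made up a median 1.54% of the span of the 105 genes, 12.1 kb beside a median span of 716 kb.

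Total counts were 111458145 to 159929347 per library. Fibroblast markers were present, with 7 of 8 at a median of at least 1 CPM and Col1a1 at a median 4441 CPM, although Thy1 was near 0, Dcn at 3.16 CPM and Col1a2 at 8.85 CPM. Summed markers of neurons, epithelium, endothelium, blood and muscle reached at most 8.63 CPM in any library. Cbx3 did not separate the labels. It was at 37.1, 37.4 and 41.5 CPM in HPg and 35.5, 39.0 and 35.0 CPM in knockout libraries without PMA (log2 fold change -0.08, adjusted p = 0.838 by edgeR's quasi-likelihood test with Benjamini-Hochberg adjustment). With PMA the log2 fold change was -0.28 (adjusted p = 0.269), so the cells are called knockout-labelled below.

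The values of the table show what a level of these genes holds. Of 178 coding genes that lie inside another coding gene on the same strand, 151 (84.8%) had 0 counts in all libraries. This was so for 56 of 443 (12.6%) nested on the opposite strand only and for 2341 of 19554 (12.0%) that were not nested. Rpl13 and Cox4i1, housekeeping genes of the ribosome and of respiration, lie in the span of Gm20388 on its strand and had 0 counts, while Aprt (73.5 CPM) and Chmp1a (138 CPM), inside it on the other strand, were counted. Vamp3 and Per3, inside Camta1 on its strand, were exceptions and both were counted, at up to 92.3 CPM. Most genes nested on the same strand thus had the pattern of counting over whole gene bodies, introns included. In that pattern counting is by strand, and reads shared by several genes are dropped. The labels do not name the counting settings. Each level below is therefore taken as one of transcript over the span, and it is compared between genes per 100 kb of span.

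Spans ran from 502 kb to 4435 kb, with 59 genes of 500 to 750 kb, 23 of 750 to 1000 kb and 23 longer. The longest were Gm20388 (4435 kb, a read-through model), the growth factor receptor Fgfr2 (2961 kb), the receptor phosphatase Ptprd (2271 kb) and dystrophin, Dmd (2257 kb). In 4 genes (Gm20388, Fgfr2, the cystine transporter Slc7a11 and the ErbB ligand Nrg1) a single gap between exons took over 80% of the span, so an exon far from the rest makes them long. In the span of Gm20388, 35 of 35 nested coding genes on its strand were at 0, and in Fgfr2 13 of 13. In the counting pattern above, reads within these nested genes would be dropped and not added to Gm20388 or Fgfr2. Whether other reads of neighbours entered the levels of Gm20388 and Fgfr2 was not tested. At the edges of the rule, Edil3 (502 kb) and Dock1 (503 kb) were just inside the span limit and Dnm3 (496 kb) and Kcnh7 (491 kb) just outside. Esrrg (1.07 CPM) and Lrmda (1.08 CPM) were just inside the level limit and Kcnma1 (0.965 CPM) and Anks1b (0.942 CPM) just outside.

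The genes lay on 19 chromosomes, with 10 on chromosome 8 and 9 on chromosome 1. Their mean level under the rule ran from 1.07 to 645 CPM with a median of 72.2, and 39 reached 100 CPM while 27 were under 10. Per 100 kb of span the median was 8.54 CPM, against 20.4 for coding genes of 200 to 500 kb, 39.6 for 100 to 200 kb, 98.4 for 20 to 100 kb and 282 under 20 kb (489, 998, 4937 and 4706 genes). All 105 were among the 16630 genes kept by the filter on low counts. Levels below are CPM scaled with TMM factors, which correct library totals for composition.

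By role, cytoskeleton and dystrophin complex genes were led by Lpp, a LIM protein of focal adhesions, at 107 CPM per 100 kb of span, with the sarcoglycan Sgcd at 21.4 and Dmd at 6.21. Channels were led by the calcium channel subunits Cacna1c (81.1) and Cacna2d3 (26.7), and receptors by the phosphatases Ptprk (89.9) and Ptprm (46.6). Among transcription and chromatin regulators the zinc finger factor Mecom stood at 72.3, Zbtb20 at 37.6 and the histone deacetylase Hdac9 at 1.65. The Golgi protein Vps13b (54.3) led trafficking and metabolism, and the polarity scaffold Pard3 (42.8) led the signalling enzymes and scaffolds. Adhesion genes ranged from 21.4 for the cadherin Cdh13 to 0.56 for Cdh18, and the RNA-binding proteins from 35.6 for Rbms3 to 0.09 for Rbfox1. Of the 4 genes listed as matrix and secreted the glypican Gpc6 was at 12.1 and Edil3, an integrin ligand, at 1.78.

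The 105 genes moved together from library to library, also within groups. The deviation of a gene is its log2 CPM minus its mean over the 12 libraries. Its median over the 105 genes was -0.62, 0.50 and -0.10 in HPg libraries 1, 2 and 3, and 0.03, 0.30 and -0.09 in HPg with PMA. It was -0.31, 0.66 and 0.13 in knockout-labelled libraries and -0.56, 0.17 and -0.15 in knockout-labelled with PMA. Library 2 was the highest of its group in all 4 groups, and library 1 the lowest in 3 of them. Group means of these medians were -0.07, 0.08, 0.16 and -0.18, within the pooled SD between libraries of a group of 0.43. As a share of all counts the genes took from 0.639% in knockout-labelled PMA library 1 to 1.76% in knockout-labelled library 2.

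**Figure D1:**
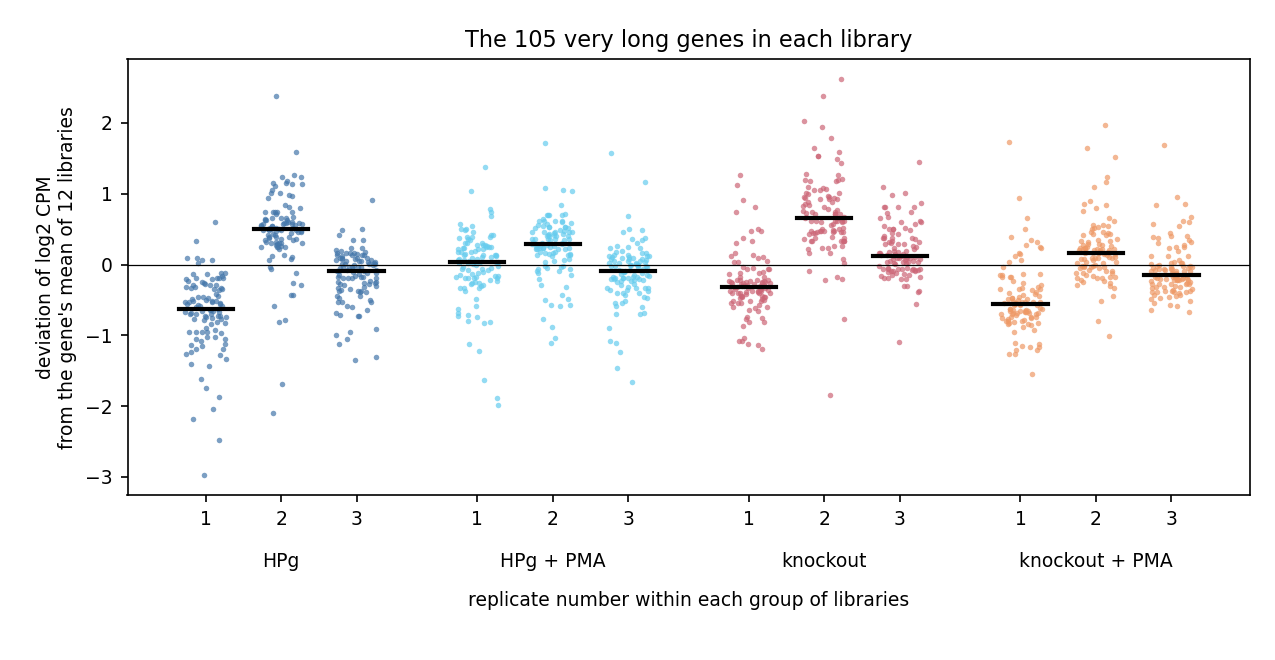
Deviation of log2 CPM from the gene's mean over 12 libraries (y axis) for each of the 105 very long genes (points) in each library (x axis), with the library median as a black bar. Medians run from -0.62 in HPg library 1 to 0.66 in knockout-labelled library 2, and library 2 has the highest median in each group.

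The shift was shared by most of the genes. In HPg, library 2 was above library 1 for 97 of the 105 genes (92.4%), against 48.5% of all genes tested and 93.7% of coding genes of 200 to 500 kb. In knockout-labelled cells it was above library 1 for 98 genes (50.0% of all genes tested, 93.0% of those of 200 to 500 kb) and with PMA for 93 (48.0% and 85.7%). The shift was thus as common among genes of 200 to 500 kb. HPg with PMA was the exception, with 71 genes (67.6%) higher in library 2 than in library 1. Over the 12 libraries the deviation of 99 genes correlated above 0 with the median of the other members, and that of 62 genes above 0.8. These correlations are descriptions across 12 libraries, which all genes share with their depth and composition. The 6 genes at or below 0 were the channel Trpm3 (-0.67), Dlgap1 (-0.43), Malrd1, Cdh18, Agbl4 and Slc7a11 (-0.08).

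In 26 of the 105 genes (24.8%, against 4.61% of all genes tested) all 4 libraries numbered 2 were above all 8 others, and in 0 were those numbered 1 or 3. In 6 genes (5.71%, against 0.914%) the libraries numbered 1 were below all others. Ntrk3, a neurotrophin receptor, was at 10.9 to 21.5 CPM in the libraries numbered 2, and at 0.867 to 1.64 CPM and 2.13 to 2.65 CPM in those numbered 1 and 3. Slit3, a secreted guidance protein, was at 238 to 539 CPM in the libraries numbered 2, at 51.1 to 128 CPM in those numbered 1 and at 84.3 to 236 CPM in those numbered 3. The teneurin Tenm4 (189 to 314 CPM), Gpc6 (148 to 254 CPM) and the Slit receptor Robo1 (135 to 283 CPM) were also highest there. The labels do not say what a number stands for.

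The size of the shift was graded by span. In knockout-labelled library 2 the median deviation was -0.17 for coding genes under 20 kb, 0.06 for 20 to 100 kb, 0.29 for 100 to 200 kb, 0.50 for 200 to 500 kb and 0.66 for the 105 genes. In HPg library 1 the same medians were 0.14, -0.03, -0.17, -0.34 and -0.62. Across 11238 coding genes the rank correlation of deviation with span ran from -0.51 in knockout-labelled PMA library 1 to 0.51 in knockout-labelled library 2. Genes are not independent replicates, and these values describe libraries. Within the 105 genes, the 23 over 1000 kb had medians of -0.74 in HPg library 1 and 0.86 in knockout-labelled library 2, the 23 of 750 to 1000 kb had -0.69 and 0.61, and the 59 of 500 to 750 kb had -0.56 and 0.71. Among the 105 genes the medians were thus graded by span in HPg library 1. In knockout-labelled library 2 they were not, as the middle class was the lowest.

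**Figure D2:**
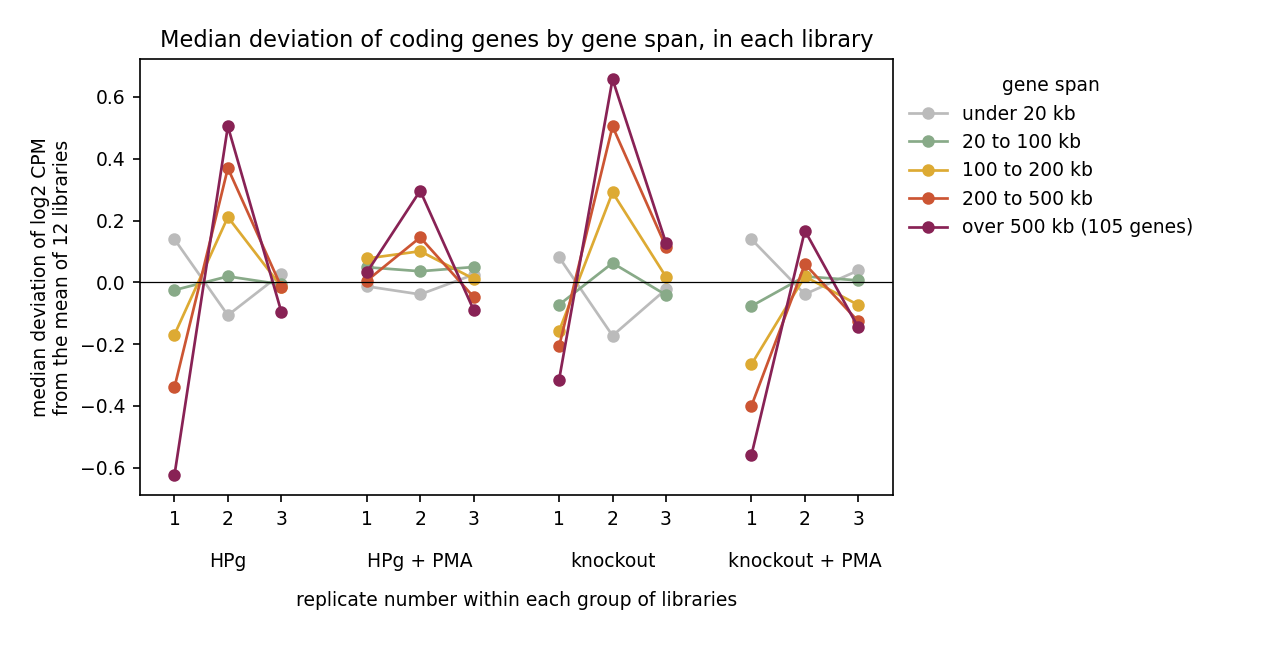
Median deviation of log2 CPM from the mean of 12 libraries (y axis) for coding genes of 5 span classes (colours) in each library (x axis, 3 per group, joined by lines). The spread between libraries is widest for the 105 genes over 500 kb, from -0.62 to 0.66, and genes under 20 kb have the opposite sign where it is widest.

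Other features of the libraries differed too, not all in step with the very long genes. Summed, the short noncoding RNAs Rmrp, Rn7sk and Rpph1 made up 8.59% of counts in knockout-labelled library 2, where the very long genes were highest. They made up 19.2% in knockout-labelled PMA library 1, where the very long genes had their lowest share of counts. HPg library 1, with a median deviation of -0.62, had 14.3%. HPg library 3 (14.1%) and knockout-labelled library 3 (14.8%) were close to it, with medians of -0.10 and 0.13. HPg PMA library 1 had 9.69%, with a median of 0.03. Fewer genes had a count in HPg library 2 (17822) than elsewhere (19759 to 20656). Mitochondrial transcripts took 0.252% to 0.503%. They took 0.484% in knockout-labelled library 2, 0.465% in HPg library 1 and 0.446% in knockout-labelled PMA library 1. The part of these features in the span trend was not tested. Fewer cells of a type and less RNA per cell cannot be told apart in these bulk samples.

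Without PMA, a few very long genes differed between the lines beyond the spread of the libraries. Edil3, A830018L16Rik, Thsd4 and Hdac9 were higher and Nav3 lower in knockout-labelled than in HPg cells, 5 of 105 genes (4.76%) called at adjusted p below 0.05, against 1.32% of all genes tested. The 105 genes had a median log2 fold change of 0.20 with 74 above 0 (51.3% of all genes tested were), against a median of 0.01 for all genes tested and 0.13 for coding genes of 200 to 500 kb. Between same-numbered libraries the median difference was 0.25, 0.16 and 0.24 for numbers 1, 2 and 3, with 81, 72 and 70 of 105 genes above 0. The median of the fit was -0.02 without HPg library 1 and -0.09 without knockout-labelled library 2. After a correction of each library for span it was -0.14, beside -0.08 for all genes tested. It called 15 genes, 5 higher and 10 lower (4.18% of all genes tested). That correction takes out any trend with span, whatever its origin, and was fitted with the 105 genes included. Fitted with only the groups compared, 0 of the 105 were called.

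Edil3 (ENSMUSG00000034488, chromosome 13) was at 2.96, 6.30 and 3.76 CPM in HPg and 12.6, 18.3 and 14.8 CPM in knockout-labelled libraries. The groups did not overlap, and the level was 3.51-fold higher (log2 fold change 1.81, SE 0.29, edgeR adjusted p = 0.0129). With PMA it was at 4.50, 6.15 and 3.19 CPM against 10.6, 12.7 and 11.4 CPM (1.32, SE 0.29, adjusted p = 0.0342). Both differences were also called after the span correction, at 1.55 and 1.41. The one with PMA was not called with chromosome medians removed (edgeR adjusted p = 0.0552) or scaled by library size only (0.0505). The first held in 11 of 12 edgeR fits that each left out 1 library (adjusted p = 0.0777 without HPg library 3). The second held in 5, with adjusted p = 0.154 at most, and was lost without HPg library 3, HPg PMA library 1 or 3, knockout-labelled library 3 or any knockout-labelled PMA library.

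A830018L16Rik (ENSMUSG00000057715, chromosome 1), an uncharacterised coding gene, was at 1.14, 1.27 and 0.873 CPM in HPg and 4.20, 4.09 and 3.02 CPM in knockout-labelled libraries. This was a log2 fold change of 1.78 (SE 0.27, edgeR adjusted p = 0.0087), called in 11 of 12 edgeR fits without 1 library (adjusted p = 0.0557 without HPg library 3). With PMA its libraries were at 1.95, 1.27 and 1.34 CPM against 2.52, 1.69 and 2.55 CPM and overlapped, and the difference was not called.

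Thsd4, a microfibril-associated matrix protein, was at 2.83, 5.33 and 3.98 CPM against 8.18, 9.51 and 10.2 CPM (log2 fold change 1.20, SE 0.24, edgeR adjusted p = 0.0321). Hdac9 was at 9.76, 11.3 and 9.05 CPM against 19.1, 21.1 and 20.1 CPM (1.00, SE 0.18, adjusted p = 0.0221). In both genes every knockout-labelled library was above every HPg library. Corrected for span, neither was called (edgeR adjusted p = 0.0533 and 0.26), nor with chromosome medians removed (0.0537 and 0.0882). Each was lost when any one of HPg library 1, HPg library 3 or the knockout-labelled libraries was left out, Thsd4 also without HPg PMA library 3 or knockout-labelled PMA library 3, with edgeR adjusted p up to 0.14 and 0.105.

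Nav3 (ENSMUSG00000020181, chromosome 10), which binds microtubule ends, was lower in knockout-labelled cells in both conditions. Without PMA it was at 9.25, 8.15 and 11.5 CPM in HPg and 3.48, 3.59 and 4.71 CPM in knockout-labelled libraries (log2 fold change -1.29, SE 0.26, edgeR adjusted p = 0.034). With PMA it was at 15.9, 7.51 and 13.7 CPM against 2.72, 3.03 and 3.90 CPM (-1.94, SE 0.27, adjusted p = 0.0053). The groups did not overlap in either condition. The difference with PMA was called in all 12 edgeR fits without 1 library and after the span correction (-1.90). The one without PMA held in 5 of 12, with adjusted p = 0.138 at most, and was lost without HPg library 1 or 3, any knockout-labelled library, HPg PMA library 3 or knockout-labelled PMA library 2, and with chromosome medians removed (0.103).

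**Figure D3:**
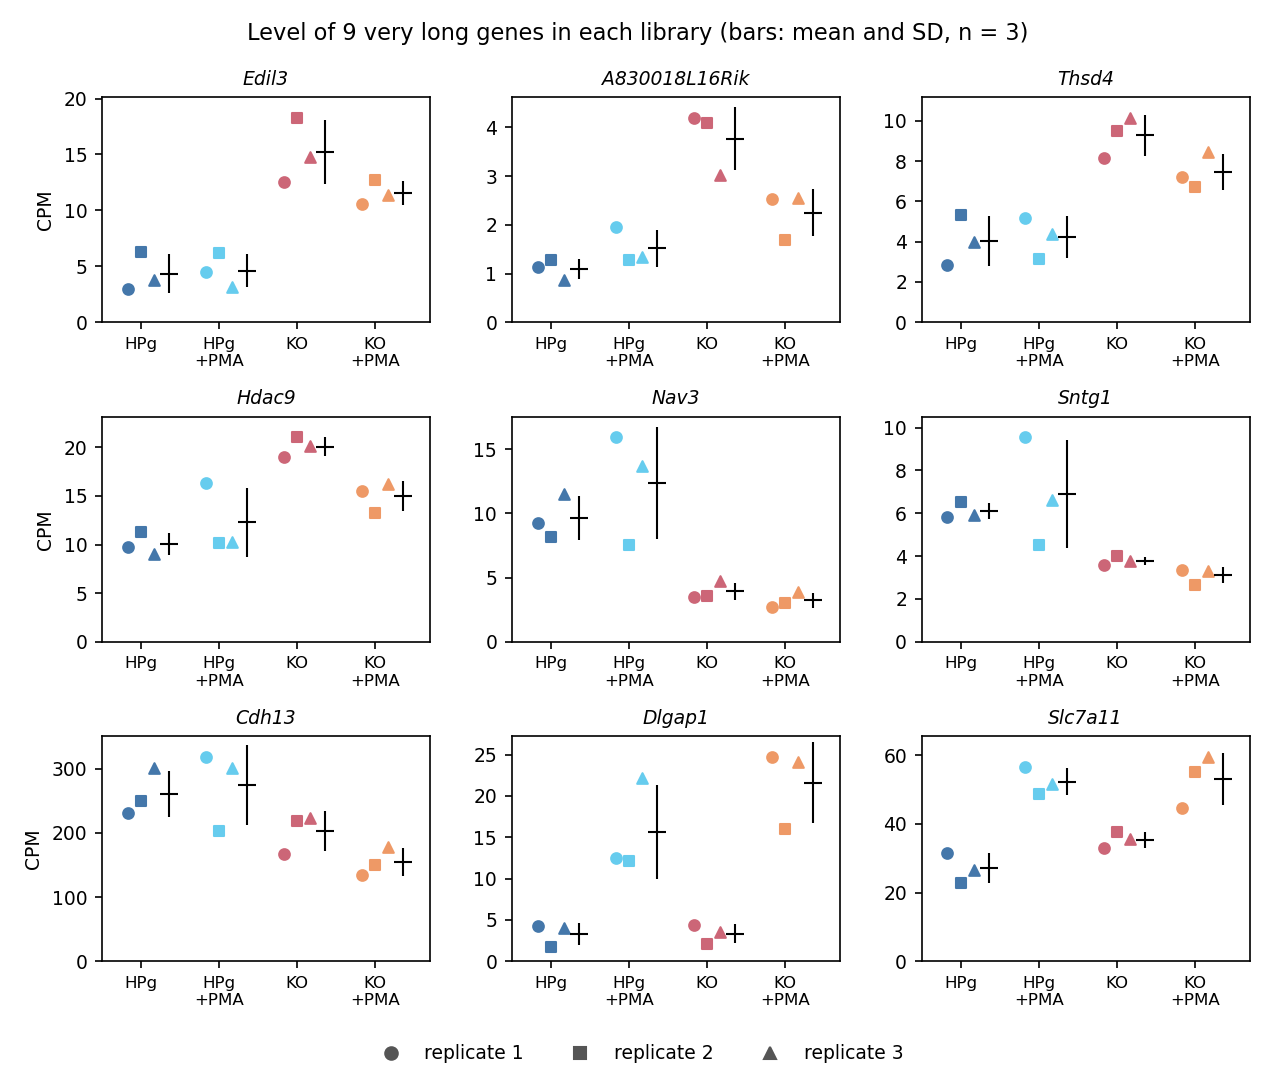
Level in CPM (y axis, from 0) of 9 very long genes in each library of the 4 groups (x axis; circles, squares and triangles are replicates 1, 2 and 3), with the mean and SD of each group (n = 3). Edil3, Thsd4, Nav3, Sntg1 and Cdh13 separate the lines with and without PMA, and Dlgap1 and Slc7a11 separate PMA from no PMA in both lines.

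Libraries with the same number varied together, and a fit with the number as a block called more genes. It called 28 of the 105 higher and 2 lower in knockout-labelled cells without PMA (28.6%, against 12.5% of all genes tested, 7.08% higher and 5.44% lower), with a median of 0.21. With the span correction as well it called 18 higher and 32 lower (21% of all genes tested). The median was then -0.14, beside -0.08 for all genes tested, which the correction moved too. Of the 30 genes called with the block, 20 were called the same way with both.

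Kcnip4, a subunit of potassium channels, had the largest log2 fold change of the 105 genes in both conditions. It was at 1.93, 8.40 and 3.12 CPM in HPg and 8.57, 41.6 and 21.9 CPM in knockout-labelled libraries without PMA. With PMA it was at 2.57, 6.41 and 2.90 CPM against 7.27, 31.5 and 15.6 CPM. In each group library 2 was the highest, and each knockout-labelled library was above every HPg library. The log2 fold changes were 2.42 (SE 0.71, edgeR adjusted p = 0.135) and 2.19 (SE 0.71, adjusted p = 0.129), not called. With the block they were 2.43 (adjusted p = 7.17e-06) and 2.06 (adjusted p = 2.04e-05), and with block and span correction both were called too.

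Among the others higher in the blocked fit without PMA were the forkhead factor Foxp2 (1.83), Malrd1 (1.81), the FGF family member Fgf14 (1.56), the matrix protein Adamtsl1 (1.46), the Slit receptor Robo2 (1.38), Il1rapl1 (1.21), Cdh18 (1.18) and Slit3 (1.12), as log2 fold changes. All but Robo2 were also called with block and span correction. Each was above HPg in all 3 pairs of same-numbered libraries. Sntg1, a syntrophin of the dystrophin complex, was lower (-0.69, blocked edgeR adjusted p = 0.0383). By role, 5 of 7 adhesion genes, 4 of 7 channels, 2 of 4 matrix and secreted genes and 3 of 11 receptors were higher with the block. So were 3 of 10 transcription and chromatin regulators, 4 of 19 signalling genes, 2 of 16 trafficking and metabolism genes and 0 of 3 RNA-binding proteins. Of 10 cytoskeleton and dystrophin genes 1 was higher and 2 were lower. Beside these, 28 of the 105 genes and 7.08% of all genes tested were higher, and 5.44% of all genes tested were lower. Counts by role with block and span correction are not given. The matrix and secreted list had the largest median log2 fold change of the role lists without the block, 0.84, and 0.49 after the span correction. Its 4 genes ran from -0.15 to 1.81, and 2 were above 0 after the correction. Thsd4 and Slit3 are not in that list. The adhesion and channel lists had medians of 0.54 and 0.56, and 0.20 and 0.23 after the correction. Summed markers of neurons were at 0.983 to 1.86 CPM in the HPg libraries with and without PMA and 1.72 to 4.07 CPM in knockout-labelled libraries, and those of muscle at 0.278 to 0.897 and 0.962 to 1.35 CPM. Only Stmn2 of the 4 neuron markers reached a median of 1 CPM, and Myod1 was at 0 in all libraries. Their part in the adhesion and channel lists was not tested.

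With PMA, more very long genes were called lower than higher in knockout-labelled cells, most of them only with the replicate block. Without the block, Edil3 was higher and Nav3, Sntg1 and Cdh13 lower, 4 of 105 (3.81%) against 2.47% of all genes tested, and 35 of the 105 log2 fold changes were above 0, against 51.3% of all genes tested. The median was -0.17, beside -0.19 for coding genes of 200 to 500 kb, and the median differences of the pairs numbered 1, 2 and 3 were -0.57, -0.08 and 0.00, with 24, 41 and 53 of 105 above 0. With the block 8 were higher and 36 lower (41.9%, against 18.6% of all genes tested, 9.49% higher and 9.09% lower). All 44 were also called the same way with the span correction and the block, which called 22.7% of all genes tested. In 23 of the 105 genes all knockout-labelled libraries were below all HPg libraries (12.4% of all genes tested were), and in 5 above (12.5%). Without knockout-labelled PMA library 1, in which the genes were lowest, the median was -0.005, and without HPg PMA library 2 it was -0.06. After the span correction it was -0.13, beside -0.05 for all genes tested, with 19 genes called, 3 higher and 16 lower (5.41% of all genes tested).

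Sntg1 was at 9.55, 4.53 and 6.60 CPM in HPg PMA libraries and 3.37, 2.67 and 3.31 CPM in knockout-labelled PMA libraries (log2 fold change -1.15, SE 0.23, edgeR adjusted p = 0.0277). Cdh13, a cadherin without a cytoplasmic tail, was at 319, 203 and 301 CPM against 134, 151 and 178 CPM (-0.83, SE 0.19, adjusted p = 0.0464). Neither pair of groups overlapped. Without PMA the lines did not overlap either, with Sntg1 at 5.84, 6.54 and 5.92 against 3.58, 3.98 and 3.76 CPM. Cdh13 was then at 231, 250 and 301 against 167, 219 and 223 CPM, and neither gene was called there without the block. With PMA, Sntg1 kept its call in 6 and Cdh13 in 4 of 12 edgeR fits without 1 library (adjusted p up to 0.105 and 0.196). Both were called with the block (blocked edgeR adjusted p = 0.0024 and 0.0022). Corrected for span, neither was called (0.0991 and 0.149), nor with only the groups compared (0.0537 and 0.0521), nor was Cdh13 under upper-quartile factors (0.0543). Leaving out HPg PMA library 1 or 3, knockout-labelled library 3 or any knockout-labelled PMA library ended both calls, and HPg library 1 or 3 also that of Cdh13.

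The blocked fit with PMA added Nrg1 (-1.39), Gpc6 (-0.98), Robo1 (-0.96), Ptprk (-0.85), Ccser1 (-0.84), the scaffold Magi1 (-0.84) and the AF4-family factor Aff2 (-0.80) as the lower genes with the largest log2 fold changes. Nrg1 was at 45.9, 41.1 and 42.9 CPM in HPg PMA libraries and 11.2, 19.6 and 22.2 CPM in knockout-labelled PMA libraries, which did not overlap. Ptprk, which mediates adhesion between like cells, was at 623, 632 and 544 CPM against 268, 403 and 350 CPM, again without overlap. The higher genes included Kcnip4, Edil3, Adamtsl1 (1.21), Malrd1 (1.09), Fgf14 (0.82), Thsd4 (0.81) and Slit3 (0.75), and all 8 higher genes were also higher with the block without PMA. With the median of each chromosome removed, Cdh13 was not called (edgeR adjusted p = 0.143). By role, 5 of 10 cytoskeleton and dystrophin genes, 5 of 11 receptors, 7 of 16 trafficking and metabolism genes and 7 of 19 signalling genes were lower with the block. Beside these, 36 of the 105 genes and 9.09% of all genes tested were lower.

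**Figure D4:**
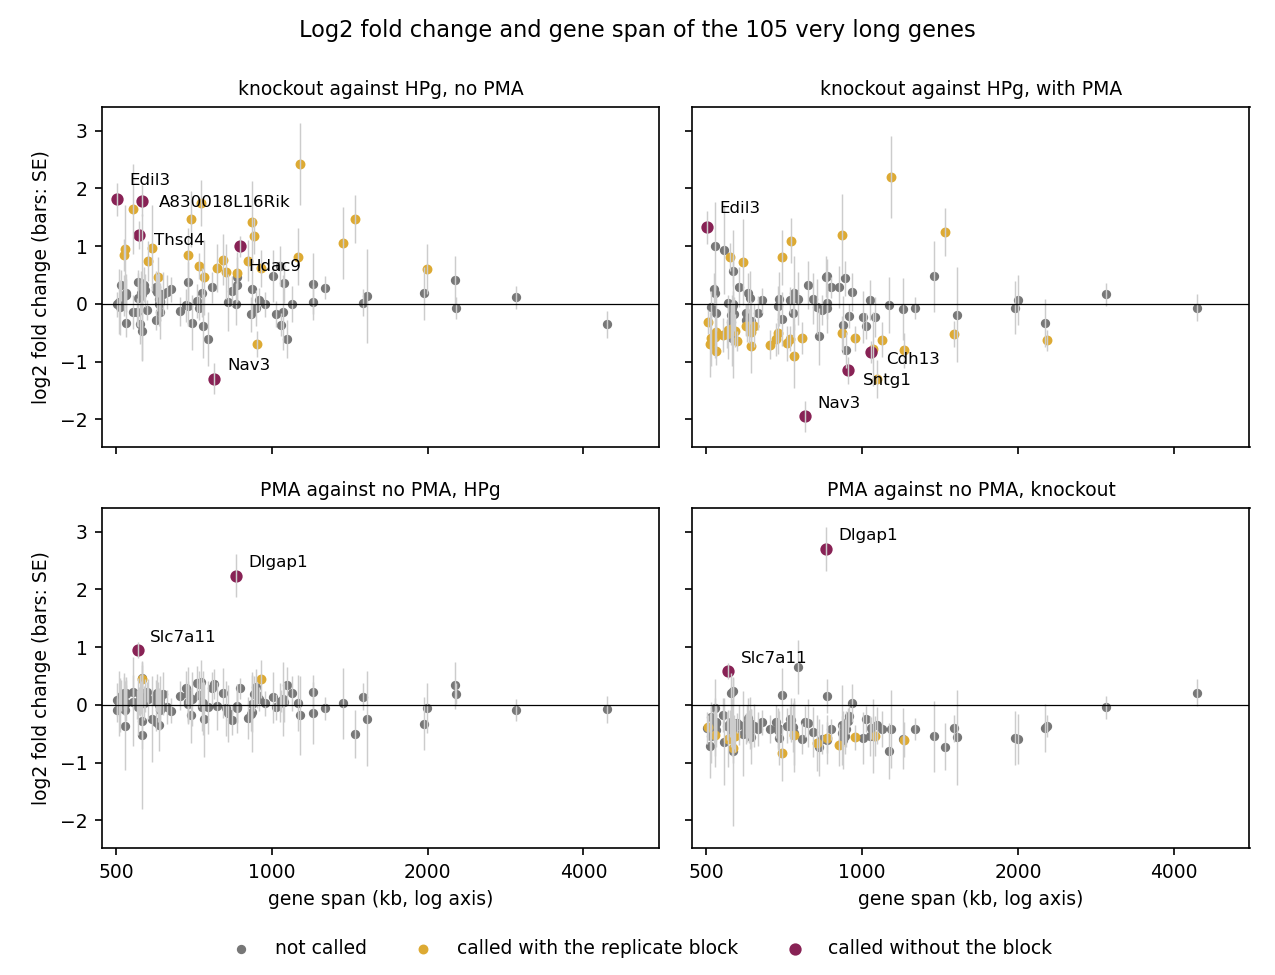
Log2 fold change with its SE (y axis) of the 105 genes against gene span in kb (x axis, log scale) in 4 comparisons, with genes called at adjusted p below 0.05 without the block (purple, named), only with the replicate block (yellow) or in neither (grey). The median is 0.20 and -0.17 between the lines without and with PMA, 0.06 for PMA in HPg and -0.41 for PMA in knockout-labelled cells.

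Magi2, Cadm2 and Lrrc4c, which the rule leaves out, had all knockout-labelled libraries below all HPg libraries and are given here as values with no test. Magi2 was at 45.9 to 154 CPM in the 6 HPg libraries with and without PMA and 7.42 to 34.6 CPM in the 6 knockout-labelled libraries. Cadm2 was at 39.6 to 98.1 CPM and 5.47 to 8.95 CPM, and Lrrc4c at 22.9 to 49.1 CPM and 1.49 to 2.44 CPM.

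After PMA, Dlgap1 and Slc7a11 rose in both lines and no other very long gene was called. This was 2 of 105 genes (1.90%) in each line, against 3.45% of all genes tested in HPg and 4.44% in knockout-labelled cells. Dlgap1 (ENSMUSG00000003279, chromosome 17), a scaffold of the postsynaptic density, was at 4.22, 1.73 and 3.96 CPM in HPg and 12.5, 12.1 and 22.2 CPM with PMA. In knockout-labelled cells it was at 4.36, 2.07 and 3.50 CPM without and 24.8, 16 and 24.1 CPM with PMA. The groups did not overlap in either line. The rise was 4.72-fold in HPg (log2 fold change 2.24, SE 0.38, edgeR adjusted p = 0.00639) and 6.53-fold in knockout-labelled cells (2.71, SE 0.38, adjusted p = 0.00149). It was called in all 12 edgeR fits without 1 library in both lines. After the span correction it was called in knockout-labelled cells (3.08) and not in HPg (2.06, adjusted p = 0.0866).

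Slc7a11 (ENSMUSG00000027737, chromosome 3) encodes the exchanger that imports cystine for glutathione synthesis. It was at 31.7, 22.9 and 26.7 CPM in HPg and 56.4, 48.8 and 51.7 CPM with PMA, a 1.93-fold rise (log2 fold change 0.95, SE 0.14, edgeR adjusted p = 0.00313). In knockout-labelled cells it was at 32.9, 37.7 and 35.5 CPM without and 44.6, 55.0 and 59.6 CPM with PMA (0.59, SE 0.14, adjusted p = 0.0369). No PMA library overlapped the untreated ones. The call in HPg held in all 12 edgeR fits without 1 library and was lost with the GC and length correction (adjusted p = 0.0665). That in knockout-labelled cells held in 5, with adjusted p = 0.154 at most, and was lost without HPg library 3, HPg PMA library 3, any knockout-labelled library or knockout-labelled PMA library 2 or 3, when scaled by library size only (0.11) and with only the groups compared (0.0635). After the span correction neither was called (0.104 and 0.0762), although both were with the block added. The difference of the responses between the lines was not called for either gene. It was 0.47 (SE 0.51) for Dlgap1 and -0.36 (SE 0.20) for Slc7a11, on the log2 scale.

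Because only these 2 genes were called higher in both lines without the block or a correction, their promoters are shown. Each window is the 250 bases before a RefSeq start in the orientation of the gene (GRCm38.p6, a build other than that of the counts). Capitals mark TGATGCAA on either strand, a core that binds ATF4 with C/EBP factors. The pattern TGANTCA was searched too, on both strands, and the motifs do not overlap here. It is a loose form of the site of AP-1, a target of protein kinase C signalling. It takes any base at N, so a match need not be an AP-1 site. Slc7a11 has 1 start at chr3:50443614-50443863, minus strand, and Dlgap1 has starts at chr17:69968823-69969072 and chr17:70561497-70561746, plus strand.
Slc7a11: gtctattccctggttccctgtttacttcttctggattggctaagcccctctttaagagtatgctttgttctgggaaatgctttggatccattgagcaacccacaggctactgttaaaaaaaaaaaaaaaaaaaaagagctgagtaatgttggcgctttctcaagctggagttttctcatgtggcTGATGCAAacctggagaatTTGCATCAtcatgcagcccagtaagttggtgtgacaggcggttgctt
Dlgap1 first start: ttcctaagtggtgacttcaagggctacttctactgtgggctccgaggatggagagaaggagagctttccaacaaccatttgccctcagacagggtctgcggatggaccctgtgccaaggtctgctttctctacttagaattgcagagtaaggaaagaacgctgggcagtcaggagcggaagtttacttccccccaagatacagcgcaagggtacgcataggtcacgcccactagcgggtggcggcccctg
Dlgap1 second start: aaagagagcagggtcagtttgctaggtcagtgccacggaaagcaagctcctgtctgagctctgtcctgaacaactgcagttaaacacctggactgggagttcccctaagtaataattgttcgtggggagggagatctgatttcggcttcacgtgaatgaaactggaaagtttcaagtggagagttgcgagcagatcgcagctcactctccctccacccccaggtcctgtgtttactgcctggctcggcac

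The Slc7a11 window holds 2 matches to TGATGCAA, 1 on each strand, and 0 to TGANTCA, and neither Dlgap1 window holds a match. Of 32851 windows of this length, 0.791% hold TGATGCAA and 6.75% TGANTCA. A match describes these letters and no binding was measured.

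Tgif1, a homeodomain repressor of TGF-β signalling, starts 32.1 kb beyond the end of Dlgap1 on the opposite strand. It was at 28.6 to 43.4 CPM in HPg and 72.9 to 87.4 CPM with PMA (log2 fold change 1.13, SE 0.17, edgeR adjusted p = 0.0037). In knockout-labelled cells it was at 30.8 to 42.7 CPM and 90.1 to 113 CPM (1.45, SE 0.18, adjusted p = 0.00043). Its part in the counts of Dlgap1 was not tested.

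The other very long genes had no call for PMA in HPg without the block, and their order differed between pairs. The median log2 difference between PMA and untreated libraries of the same number was 0.64 for number 1, with 104 of 105 genes above 0, -0.20 for number 2, with 11 above 0, and 0.02 for number 3, with 60 above 0. The median of the fit was 0.06, beside -0.02 for all genes tested. Under upper-quartile scaling both were lower, at -0.02 and -0.10. With the block 4 genes were higher and 0 lower (3.81%, against 14.8% of all genes tested). These were Dlgap1, Slc7a11, the transcription factor Sox5 (0.51) and Schip1 (0.48), which binds ankyrins. The span correction called 1 gene (4.63% of all genes tested), and 8 with the block (18.5%). By edgeR without the block, no very long gene besides Dlgap1 and Slc7a11 had an unadjusted p below 0.05, against 2889 of 16630 genes tested.

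In knockout-labelled cells PMA libraries were lower for most very long genes in every pair. The median difference was -0.28, -0.57 and -0.31 for numbers 1, 2 and 3, with 14, 8 and 9 of 105 genes above 0, against 46.8%, 48.4% and 48.7% of all genes tested. The fit gave a median of -0.41 with 9 of 105 genes above 0 (47.7% of all genes tested), and medians of -0.34 for coding genes of 200 to 500 kb, -0.18 for 100 to 200 kb and 0.08 under 20 kb. Without knockout-labelled library 2 the median was -0.11 and without knockout-labelled PMA library 1 it was -0.24. After the span correction it was -0.002, with 52 of 105 above 0 and 3 genes called, all higher (5.26% of all genes tested), and 8 with the block (13.8%). Because the correction takes out any trend with span, whatever its origin, a median near 0 was largely set in advance. No gene was called lower without the block. With the block 15 were called (13.4% of all genes tested). Of these, 13 were lower (against 6.56% of all genes tested), with Fgf14 (-0.79), A830018L16Rik (-0.74), Etl4 (-0.65), Cacna2d3 (-0.63), Ccser1 (-0.57), Kirrel3 (-0.55), Ctnnd2 (-0.54), Celf2 (-0.54), Rbms3 (-0.50) and Sox6 (-0.50) the largest. None of these 13 was called with span correction and block.

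Every role list shared this. Median log2 fold changes for PMA in knockout-labelled cells ran from -0.56 for the 3 RNA-binding proteins to -0.35 for the 10 cytoskeleton and dystrophin genes, and from -0.10 to 0.06 after the span correction. The 11 genes of common fragile sites, among them Rora and Dmd, had -0.48, and -0.05 after the correction. Scaled by library totals alone the median of the 105 genes was -0.53, beside -0.14 for all genes tested.

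No very long gene was called for the interaction of line and PMA, by edgeR with or without the block (0% of all genes tested) or by DESeq2. By edgeR 4 of 105 had an unadjusted p below 0.05, A830018L16Rik, Zbtb20, Hdac9 and Rabgap1l, against 328 of 16630 genes tested. The median interaction was -0.49, with 95 of 105 genes below 0, beside 0.02 for all genes tested and -0.33 for coding genes of 200 to 500 kb. After the span correction it was -0.09, beside 0.05 for all genes tested. In 12 of the 105 genes (11.4%, against 1.97% of all genes tested) the knockout-labelled library was above HPg in all 3 pairs without PMA and below in all 3 with PMA.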

How the data were processed

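Directional libraries of rRNA-depleted total RNA were sequenced paired-end, 150 bases, per the labels' protocols. The authors deposited raw counts per gene, with cutadapt 1.11, STAR 2.5.0a, featureCounts 1.4.6-p3 and the build mm9 named in the submitters' processing notes. Settings of the counting step were not stated. Span, type and exons came from GENCODE M21 on GRCm38, matched by gene identifier, so no gene coordinates are given.

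Genes with low counts were removed with filterByExpr (minimum count 10, total 15). All 12 libraries entered 1 fit with a coefficient per group in edgeR 4.0.16 (R 4.3.3), with TMM factors and robust quasi-likelihood dispersions. Benjamini-Hochberg adjustment ran over all 16630 genes, a gene was called at adjusted p below 0.05, and the SE is the log2 fold change over the root of F. Deviations used log2 CPM with a prior count of 2. The span correction added per-library offsets from a spline (5 df) of deviation on log10 span. Scripts were tested on simulated counts.

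Replicate numbers come from the labels. Deviations from group means correlated at 0.159 to 0.558 for the 18 same-numbered pairs and at -0.517 to 0.163 for the 36 others. Centring on group means lowers the second range when the first is high, so the ranges are not independent, and they overlap slightly. The labels state no pairing. The numbers were taken to pair the libraries in the blocked fit, and its adjusted p-values rest on that choice. Libraries of a group differed beyond sampling noise (chi-square per degree of freedom of at least 112). The alternatives were DESeq2 1.42.0, other scalings and filters, corrections for span, GC and length or chromosome, the replicate block, only the groups compared, and each library left out. Leaving out libraries by number and genes with stretched spans was added after seeing the data.

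The genes and role lists were chosen with earlier results of these data known. Ccser1 was taken out of the RNA-binding list, where it had been placed in error, after values were seen. Genes named are those called in each comparison with and without the block (up to 10 per direction), those highest or longest, those at the edges of the rule, those left out by name, and the leading members of each list. Others named (Ntrk3, Tgif1, nested genes, genes of low correlation, further examples within lists) were chosen after their values were seen. Some genes are not reported here by name.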

Additional observations from a re-analysis of the deposited data

How the results depend on the processing

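Between the lines without PMA, 5 very long genes were called, and 9 with DESeq2, 2 with chromosome medians removed, 15 with the span correction, 30 with the replicate block, 50 with span correction and block, 0 with only the groups compared, and 0, 11 and 0 without the libraries numbered 1, 2 and 3. With PMA 4 were called, and 10 with DESeq2, 11 with the GC and length correction, 2 with chromosome medians removed, 19 with the span correction, 44 with the replicate block, 56 with both, and 0, 16 and 0 without numbers 1, 2 and 3. For PMA in HPg 2 were called, and 1 with the GC and length correction, 1 with the span correction, 4 with the replicate block, 8 with span correction and block, 1 and 0 without numbers 1 and 3, and 1 without genes of stretched span, which removes Slc7a11. For PMA in knockout-labelled cells 2 were called, and 15 with the replicate block, 8 with span correction and block, 1 with library size only, 1 with only the groups compared, 1 and 0 without numbers 2 and 3, and 1 without stretched spans. Shares of all genes tested changed with the setting too. With neither, the span correction, the block and both they were 1.32%, 4.18%, 12.5% and 21% between the lines without PMA. With PMA they were 2.47%, 5.41%, 18.6% and 22.7%. For PMA in HPg they were 3.45%, 4.63%, 14.8% and 18.5%, and in knockout-labelled cells 4.44%, 5.26%, 13.4% and 13.8%. No such share is given for the other settings or for each library left out, so those counts describe the fits. The cause of these changes was not tested, other than that fewer libraries entered some fits.

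Leaving out each library in turn gave 0 (without HPg library 3) to 8 (without HPg library 2) calls without PMA, 1 to 5 with PMA, 2 to 2 for PMA in HPg, 1 to 2 for PMA in knockout-labelled cells and 0 to 0 for the interaction. The medians ran from -0.09 to 0.54, from -0.41 to -0.005, from -0.16 to 0.46, from -0.61 to -0.11 and from -0.75 to -0.17 in the same order. Kirrel3, with PMA in knockout-labelled cells, ran from -1.05 (without knockout-labelled PMA library 2) to 0.0083 (without knockout-labelled library 2, a change of sign). The range of library medians, 1.28, was 0.834 after the GC and length correction and 0.405 after the span correction. Of the values for single named genes under the alternatives, 1102 kept direction and side of the threshold, 96 newly passed it, 97 no longer did and 1 reversed.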
